A study of Mus musculus with 9 samples.

Results

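The genes described are 43 targets, partners and neighbours of ATF4, a transcription factor of the amino acid response: 6 transcription factors, 7 stress effectors and feedback genes, 9 enzymes of serine synthesis and the folate cycle, 8 other enzymes of amino acid metabolism, and 13 genes of tRNA charging and export. They were listed by name, out of 25160 genes, and all 43 had a row in the table, with Mars listed under its current symbol Mars1. Of these, 37 had enough counts to be tested and 6 did not. The libraries came from CD4+ T cells sorted as naive from the spleens of C57BL/6 mice, in 3 groups of 3. Every culture was stimulated through plate-bound anti-CD3e antibody at 1 µg/ml, which triggers the T cell receptor complex, and received a second coated antibody at 19 µg/ml. Wild-type cells (genotype wt) received either an isotype control antibody or an antibody against CD40L, the ligand that activated helper T cells present to CD40 on other cells. Cells of the libraries labelled KO (genotype cre), from mice with a T cell-specific CD40L deficiency, received the isotype antibody. All 3 groups thus share the anti-CD3e stimulus, and there was no deficient group on anti-CD40L. The labels name neither the promoter driving Cre, nor the age of the mice, nor the length of culture.

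ATF4 is made mainly by control of translation: when amino acids run short, or unfolded protein builds up in the endoplasmic reticulum, kinases phosphorylate the initiation factor eIF2, most translation slows, and the Atf4 mRNA is translated better. Signalling through mTORC1 raises ATF4 too, which is how it is engaged in growing cells. ATF4 pairs with C/EBP proteins and switches on genes for amino acid synthesis and uptake, tRNA charging and serine-derived one-carbon units. T cells leaving rest after receptor stimulation depend on those one-carbon units to build purines and thymidylate. The level of Atf4 mRNA is therefore only a partial measure of ATF4 activity, and no protein was measured here.

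The sequence by which ATF4 and C/EBP partners recognise DNA, the C/EBP-ATF response element, has the core TGATGNAA, and its reverse complement is read on the other strand. Promoter windows of 250 bases before to 50 bases after the annotated start (RefSeq, build GRCm38, the assembly also called mm10) were on hand for 36 of the 43 genes. The core was present on either strand in 13 of the 36 (36.1%), against 1219 of 27025 genes with a window (4.51%). Because genes were listed as targets of ATF4, a higher share was built into the list and is no separate result. In related sets described below the core was in 2 of 10 windows (amino acid transporters), 1 of 11 (eIF2 and its kinases) and none of the rest. The 13 were Nupr1, Trib3, Chac1, Vldlr, Asns, Got1, Pycr1, Pck2, Aars, Gars, Iars, Tars and Yars, with 2 matches in Aars. Shown first are the 4 genes that passed the test between the antibodies and hold the core, then Asns and Chac1, textbook ATF4 targets. Each is 30 bases, 5′ to 3′ in the direction of the gene, with the core in capitals.
Trib3: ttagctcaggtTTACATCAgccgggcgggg
Pck2: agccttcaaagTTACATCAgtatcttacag
Got1: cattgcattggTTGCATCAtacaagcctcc
Iars: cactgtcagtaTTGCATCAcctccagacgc
Asns: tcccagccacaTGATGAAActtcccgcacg
Chac1: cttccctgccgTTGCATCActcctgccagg
The windows are at chr2:152344028-152344057 (minus strand) for Trib3, with the core 15 bases into the first exon, chr14:55540152-55540181 (plus strand) for Pck2, with the core 103 bases before the start, chr19:43524689-43524718 (minus strand) for Got1, with the core 102 bases before the start. The others are at chr13:49682126-49682155 (plus strand) for Iars, with the core 8 bases into the first exon, chr6:7693214-7693243 (minus strand) for Asns, with the core 23 bases before the start, chr2:119351038-119351067 (plus strand) for Chac1, with the core 193 bases before the start.
In 5 of the 6 the core lies on the opposite strand of the gene, so that its reverse complement is printed, and in Asns it lies on the strand of the gene. The whole 250 bases upstream of the start follow for Pck2 and Got1, whose mRNAs moved in opposite directions and which hold the core 103 and 102 bases before the start.
Pck2: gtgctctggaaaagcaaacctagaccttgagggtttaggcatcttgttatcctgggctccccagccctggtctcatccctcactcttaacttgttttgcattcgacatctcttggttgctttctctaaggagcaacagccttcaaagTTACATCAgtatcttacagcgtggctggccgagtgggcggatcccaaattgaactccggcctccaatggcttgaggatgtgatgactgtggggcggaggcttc
Got1: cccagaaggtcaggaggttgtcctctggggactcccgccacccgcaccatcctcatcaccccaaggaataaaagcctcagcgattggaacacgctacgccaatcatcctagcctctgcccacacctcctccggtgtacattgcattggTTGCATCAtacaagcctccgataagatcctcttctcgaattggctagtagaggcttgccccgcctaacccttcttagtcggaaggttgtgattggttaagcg
These promoters are at chr14:55540016-55540265 (plus strand) for Pck2 and chr19:43524606-43524855 (minus strand) for Got1. The E-box CACGTG, a palindrome bound by MYC and related factors, was found in 7 of the 36 windows (19.4%), against 8.09% of genes with a window. These 7 were Nupr1, Cbs, Aldh18a1, Aars, Iars, Tars and Xpot, so Nupr1, Aars, Iars and Tars held both motifs. Among related sets described below, the E-box share ran from 0 of 11 windows (eIF2 and its kinases) to 2 of 10 (amino acid transporters). It was 3 of 16 (18.8%) for enzymes of folate, purine, thymidylate and methionine metabolism. A match is only a spelling, and binding was not measured.

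Total counts ran from 5316482 in anti-CD40L replicate 3 to 15565711 in KO replicate 3. Anti-CD40L replicate 3 stood apart: 11673 genes had a count in it against 14290 to 17428 in the others, and it lay at 86.96 on a first principal component holding 54% of the variance, with the other 8 libraries between -19.1 and 10.22. Values without it are given beside some of the results that moved without it. Cd40lg, the gene for CD40L, averaged 161 ± 24.5 CPM (counts scaled to library size; SD, n = 3) on isotype, 135 ± 26.8 on anti-CD40L and 144 ± 7.13 in the KO libraries. Its level thus did not check the KO label, since which stretch was deleted is unknown from the labels. Of 8 CD4 T cell marker genes 7 had counts, summing to 3890 to 4400 CPM in every library. The 8 B cell genes summed to 13.2 to 39.1 CPM on isotype, 2.1 to 13.9 on anti-CD40L and 7.25 to 16.8 in the KO libraries, and the 10 myeloid genes to 1.95 to 3.58, 0 to 1.62 and 2.12 to 12.4 in the same order. Itgam, the myeloid marker with enough counts to test, was lower on anti-CD40L (0.191 ± 0.166 CPM) than on isotype (1.62 ± 0.876; log2 fold change -2.81, edgeR adjusted p = 0.0336) and than in the KO libraries (1.59 ± 0.612; -2.74, edgeR adjusted p = 0.0437). Itgam counts were 29, 14 and 8 on isotype, 3, 3 and 0 on anti-CD40L and 21, 15 and 22 in the KO libraries. Its anti-CD40L level thus rests on 3 counts or fewer in each library. None of the other myeloid genes separated anti-CD40L from isotype, and S100a8 and S100a9 had counts in KO replicate 1 alone. Trib3, Pck2 and Eif2ak3 were lower in the anti-CD40L libraries too, and the part of B cells and myeloid cells in the results was not tested. In bulk samples fewer cells of a type and less RNA per cell cannot be told apart. Whether the 3 libraries of each group came from separate mice or cultures is not stated, so the p-values reflect the spread among the 9 libraries alone, and that spread could be technical.

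The tested genes spanned a wide range of levels. Per kilobase of transcript, which allows levels to be compared between genes, Atf4 was the highest in isotype-treated wild-type cells at 226 CPM per kilobase. It was followed by Shmt2, the mitochondrial serine hydroxymethyltransferase, at 165, and by the synthetase genes Gars (136), Nars (126) and Eprs (109). At the low end stood Trib3 (3.54), Pck2 (2.90), Cebpb (1.93), Pycr1 (1.70), Asns (1.32) and Gpt2 (0.569). Xpot had no transcript length and was not placed. The synthetases and folate enzymes thus occupied the upper part of the range, and Asns, the asparagine synthetase that rises when asparagine is short, the lowest part. The 6 genes without enough counts to test held 2 to 52 counts over all 9 libraries: Nupr1 2, Cth 7, Chac1 18, Vldlr 23, Cbs 34 and Aldh1l2 52. Chac1, a glutathione-degrading enzyme strongly induced by ATF4 under stress, was thus near the limit of detection, with 4 counts on isotype, 6 on anti-CD40L and 8 in the KO libraries.

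**Figure D1:**
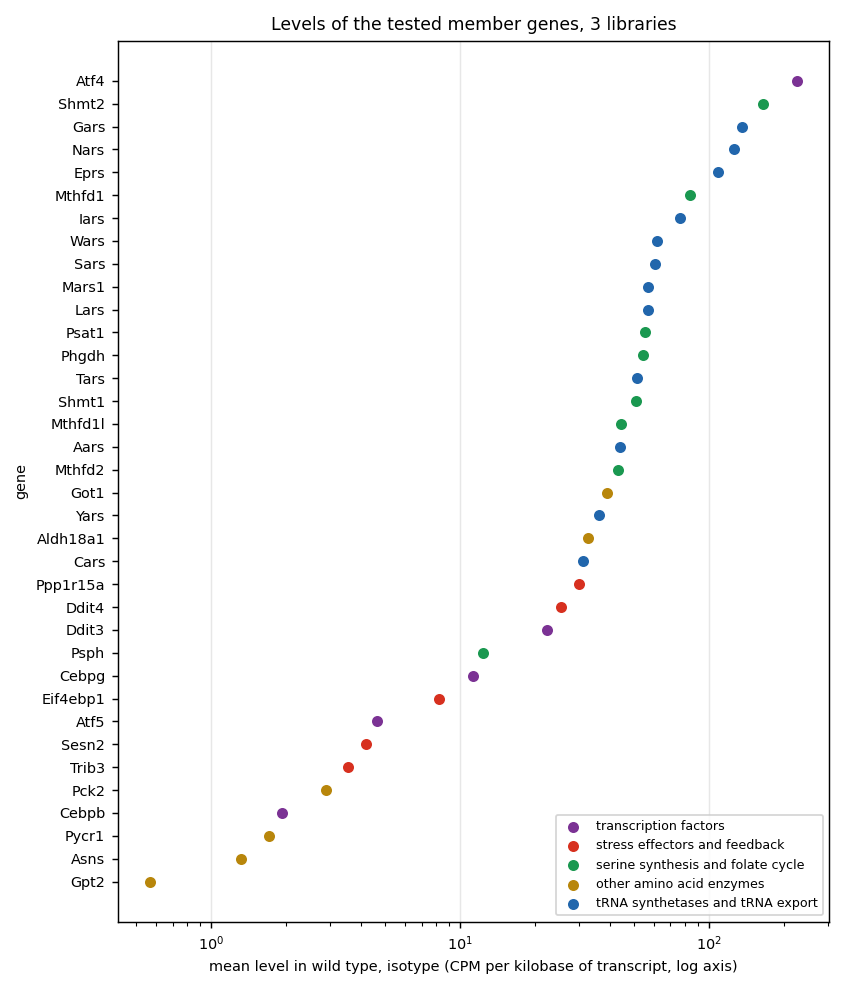
Mean level of the tested genes in wild-type cells on isotype antibody (x axis, CPM per kilobase of transcript, log axis; 3 libraries), 1 point per gene, coloured by role. Atf4 is highest at 226 and Gpt2 lowest at 0.569, and Cars is the lowest of the synthetases at 31.1.

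The first comparison addressed how wild-type cells on coated anti-CD40L differed from those on isotype. Of the 37 tested genes 8 passed the quasi-likelihood test of edgeR at an adjusted p of 0.05 (Benjamini-Hochberg): 6 rose (Mthfd1, Mthfd1l, Got1, Iars, Mars1, Xpot) and 2 fell (Trib3, Pck2). Among all 11256 genes tested 9.37% passed, 2.91% higher and 6.46% lower. The median log2 fold change was 0.09 over the 37 genes and -0.01 over all genes, and 25 of the 37 were positive, against 48.2% of all genes. In 12 of them all 3 anti-CD40L libraries lay above all 3 isotype libraries and in 4 all lay below, against 15.4% and 17.2% of all genes (32.6% together). An unadjusted p under 0.05 was reached by 15 of the 37 and by 26.4% of all genes.

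Of the transcription factors 5 of 6 were tested and none passed; their median log2 fold change was 0.05. Atf4 stood at 382, 396 and 391 CPM on isotype. On anti-CD40L it stood at 401, 397 and 412, and in the KO libraries at 436, 381 and 371. The anti-CD40L libraries all lay above the isotype ones, by little: the log2 fold change was 0.049, SE 0.078, Benjamini-Hochberg adjusted p = 0.734 by edgeR. Ddit3 encodes CHOP, a C/EBP relative that ATF4 induces under lasting stress. It was at 19.98, 22.1 and 17.3 CPM on isotype, 13.2, 16.02 and 6.69 on anti-CD40L and 23.6, 22.5 and 16.7 in the KO libraries. All 3 anti-CD40L libraries lay below the isotype ones, replicate 3 furthest, and the log2 fold change was -0.69, SE 0.25, Benjamini-Hochberg adjusted p = 0.099 by edgeR; it was -0.44 (edgeR adjusted p = 0.154) without that replicate. It passed in 3 of 19 alternative settings: with no filter, with the replicate number as a block, and without anti-CD40L replicate 2. Ddit3 shares 68 exonic bases with Mars1 on the opposite strand, and whether the counting used strand is not given, so values of both are uncertain to that extent. Atf5, a close relative of ATF4, and Cebpg and Cebpb, its C/EBP partners, ranged over 5.73 to 10.3, 47.04 to 58.01 and 2.48 to 4.07 CPM across the 9 libraries.

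Of the stress effectors 5 of 7 were tested, all 5 with a negative log2 fold change (median -0.13) and 1 passing. Trib3, a pseudokinase that holds back ATF4 and AKT and is itself an ATF4 target, was at 7.97, 7.7 and 5.85 CPM on isotype. In the anti-CD40L libraries it was at 1.52, 3.55 and 0 CPM, from 17, 35 and 0 counts. The KO libraries had 11.1, 9.0 and 4.84. Trib3 fell by 1.93 on the log2 scale against isotype (SE 0.56; Benjamini-Hochberg adjusted p = 0.0474 by edgeR), and no anti-CD40L library reached the isotype range. A count of 0 in replicate 3 allows up to 0.573 CPM at its depth (3 counts). Without that library Trib3 fell by 1.51 on the log2 scale (edgeR adjusted p = 0.0467). With every library of the 2 groups kept, the call was lost under DESeq2 (adjusted p = 0.0914) and limma-voom without and with library weights (0.0728 and 0.0598). By edgeR it was also lost with total counts (adjusted p = 0.0511), only the 2 groups (0.0665) and summed transcripts (0.0981). The call of Trib3 held in 7 of 18 alternative settings. Ddit4, an inhibitor of mTORC1, stood at 44.3, 50.5 and 39.7 CPM on isotype and 39.7, 39.9 and 33.4 on anti-CD40L, a log2 fold change of -0.24, SE 0.14, Benjamini-Hochberg adjusted p = 0.266 by edgeR. Sesn2, which senses leucine for mTORC1, was at 13.3, 17.3 and 13.2 CPM on isotype and 16.2, 14.1 and 10.5 on anti-CD40L, a log2 fold change of -0.084, SE 0.20, Benjamini-Hochberg adjusted p = 0.832 by edgeR, which was 0.063 without anti-CD40L replicate 3 and 0.054 without isotype replicate 2. Groups overlapped for both. Ppp1r15a, the phosphatase subunit that undoes eIF2 phosphorylation, and Eif4ebp1, a translation inhibitor, ranged over 64.97 to 85.2 and 11.9 to 18.7 CPM.

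Of the serine synthesis and folate cycle enzymes 8 of 9 were tested, 2 rose and none fell, and the median log2 fold change was 0.26. Mthfd1, the cytosolic enzyme that carries one-carbon units into purine and thymidylate synthesis, was at 276, 253 and 284 CPM on isotype. It reached 349.9, 323 and 414 on anti-CD40L and lay at 296, 303 and 290.0 in the KO libraries. The anti-CD40L libraries lay above all others, and Mthfd1 rose by a log2 fold change of 0.42, SE 0.093, Benjamini-Hochberg adjusted p = 0.0146 by edgeR; the call was lost only without isotype replicate 2 (edgeR adjusted p = 0.0706). Mthfd1l, which releases formate from mitochondria, was at 165, 157 and 166 CPM on isotype, 199.7, 198 and 196 on anti-CD40L and 185, 179 and 165 in the KO libraries. Its anti-CD40L values were nearly equal and above the rest, and it rose by a log2 fold change of 0.28, SE 0.073, Benjamini-Hochberg adjusted p = 0.0306 by edgeR. Mthfd2, the mitochondrial methylene-folate enzyme of dividing cells, stood at 89.8, 85.98 and 93.7 CPM on isotype and 107, 95.7 and 132 on anti-CD40L. These did not overlap, and the log2 fold change was 0.31, SE 0.11, Benjamini-Hochberg adjusted p = 0.0972 by edgeR; it was 0.19 (edgeR adjusted p = 0.216) without anti-CD40L replicate 3, and passed at 0.41 (edgeR adjusted p = 0.0363) without replicate 2. Phgdh and Psat1, the first and the next enzyme of serine synthesis from glucose, lay higher on anti-CD40L without overlap but did not pass. Phgdh was at 100.1, 106 and 103 CPM on isotype and 136, 114 and 115 on anti-CD40L, a log2 fold change of 0.24, SE 0.10, Benjamini-Hochberg adjusted p = 0.14 by edgeR. Psat1 was at 128, 113 and 139 CPM on isotype and 168, 143 and 165 on anti-CD40L, a log2 fold change of 0.32, SE 0.10, Benjamini-Hochberg adjusted p = 0.0534 by edgeR; it was called in 5 of 19 alternative settings. Shmt2 was at 389, 364 and 352 CPM on isotype and 425, 382 and 457 on anti-CD40L, overlapping, with a log2 fold change of 0.19, SE 0.082, Benjamini-Hochberg adjusted p = 0.154 by edgeR. Psph and Shmt1, the serine phosphatase and the cytosolic hydroxymethyltransferase, had negative log2 fold changes of -0.02 and -0.14 and overlapping groups.

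Of the other amino acid enzymes 6 of 8 were tested, 1 rose and 1 fell, with a median log2 fold change of 0.03. Got1, the cytosolic aspartate aminotransferase, was at 82.8, 78.9 and 79.6 CPM on isotype, 112, 89.5 and 131 on anti-CD40L and 80.2, 75.7 and 72.6 in the KO libraries. Anti-CD40L replicate 3 was the highest and no library of the other groups reached the lowest of the 3; Got1 rose by a log2 fold change of 0.46, SE 0.12, Benjamini-Hochberg adjusted p = 0.0294 by edgeR. Without replicate 3 it was 0.34 (edgeR adjusted p = 0.0598). Pck2, the mitochondrial phosphoenolpyruvate carboxykinase that lets cells feed serine synthesis from non-sugar sources, ran the other way. It was at 10.7, 9.31 and 9.64 CPM on isotype, 4.39, 5.27 and 5.54 on anti-CD40L and 9.43, 9.15 and 8.91 in the KO libraries. Every anti-CD40L library lay below every other, and Pck2 fell by 0.97 on the log2 scale (SE 0.21; edgeR Benjamini-Hochberg adjusted p = 0.0108). Its call was lost without isotype replicate 1 (edgeR adjusted p = 0.058) or anti-CD40L replicate 1 (edgeR adjusted p = 0.0582). Asns was at 3.4, 3.14 and 1.38 CPM on isotype and 5.2, 3.55 and 1.91 on anti-CD40L, a log2 fold change of 0.46, SE 0.43, Benjamini-Hochberg adjusted p = 0.534 by edgeR, with wide overlap; it was 0.72 (edgeR adjusted p = 0.244) without anti-CD40L replicate 3. Gpt2, Pycr1 and Aldh18a1, enzymes of alanine and proline metabolism, ranged over 0.76 to 2.96, 0.96 to 4.66 and 98.4 to 128 CPM. Among the listed genes with more than 1 transcript, Pycr1 differed most between them: its second transcript held 0.557 of the counts of the one used. The next lowest was Atf5 at 0.8, and the highest reached 1.0 (Cebpb).

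All 13 tRNA genes were tested, 3 rose, none fell, 11 were positive and the median log2 fold change was 0.16. Synthetases join an amino acid to its tRNA before translation, and Xpot exports tRNA from the nucleus. Iars, for isoleucine, was at 359.8, 311 and 349 CPM on isotype, 436, 396 and 433 on anti-CD40L and 346, 375 and 377 in the KO libraries; it rose by a log2 fold change of 0.31, SE 0.082, Benjamini-Hochberg adjusted p = 0.0322 by edgeR. Mars1, for methionine, was at 166, 163 and 176 CPM on isotype, 209, 190.3 and 239.8 on anti-CD40L and 164, 174 and 154 in the KO libraries and rose by a log2 fold change of 0.34, SE 0.092, Benjamini-Hochberg adjusted p = 0.0373 by edgeR. Xpot was at 207, 193 and 216 CPM on isotype, 282, 238 and 253 on anti-CD40L and 201, 236 and 242 in the KO libraries and rose by a log2 fold change of 0.33, SE 0.093, Benjamini-Hochberg adjusted p = 0.043 by edgeR. For all 3 the anti-CD40L libraries lay above the isotype libraries without overlap, though Xpot replicate 2 on anti-CD40L lay below KO replicate 3. Without anti-CD40L replicate 3 the edgeR adjusted p-values were 0.0664 for Iars, 0.0851 for Mars1 and 0.0596 for Xpot. Of the 10 synthetases that did not pass, Aars (alanine) and Eprs (glutamate and proline) also lay higher without overlap. Aars was at 244, 259 and 253 CPM on isotype and 283, 265 and 295 on anti-CD40L, a log2 fold change of 0.16, and Eprs at 531, 504 and 575 CPM on isotype and 649, 584 and 609.7 on anti-CD40L, a log2 fold change of 0.20. Sars, for serine, ran the other way without overlap, at 227, 213 and 212 CPM on isotype and 204, 207 and 175 on anti-CD40L, a log2 fold change of -0.15. The groups overlapped for the other 7. Over the 9 libraries Gars ranged over 305 to 388 CPM, Nars over 340.2 to 405, Lars over 207 to 254, Tars over 194 to 222, Cars over 96.8 to 112 and Yars over 99.7 to 134. Wars was the steadiest of the tested genes, between 166 and 178 CPM with a coefficient of variation of 1.96% over the 9 libraries, against 4.87% for Atf4 and 63% for Trib3. Aars shares 1326 exonic bases with Exosc6 on the same strand, so its value is uncertain.

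**Figure D2:**
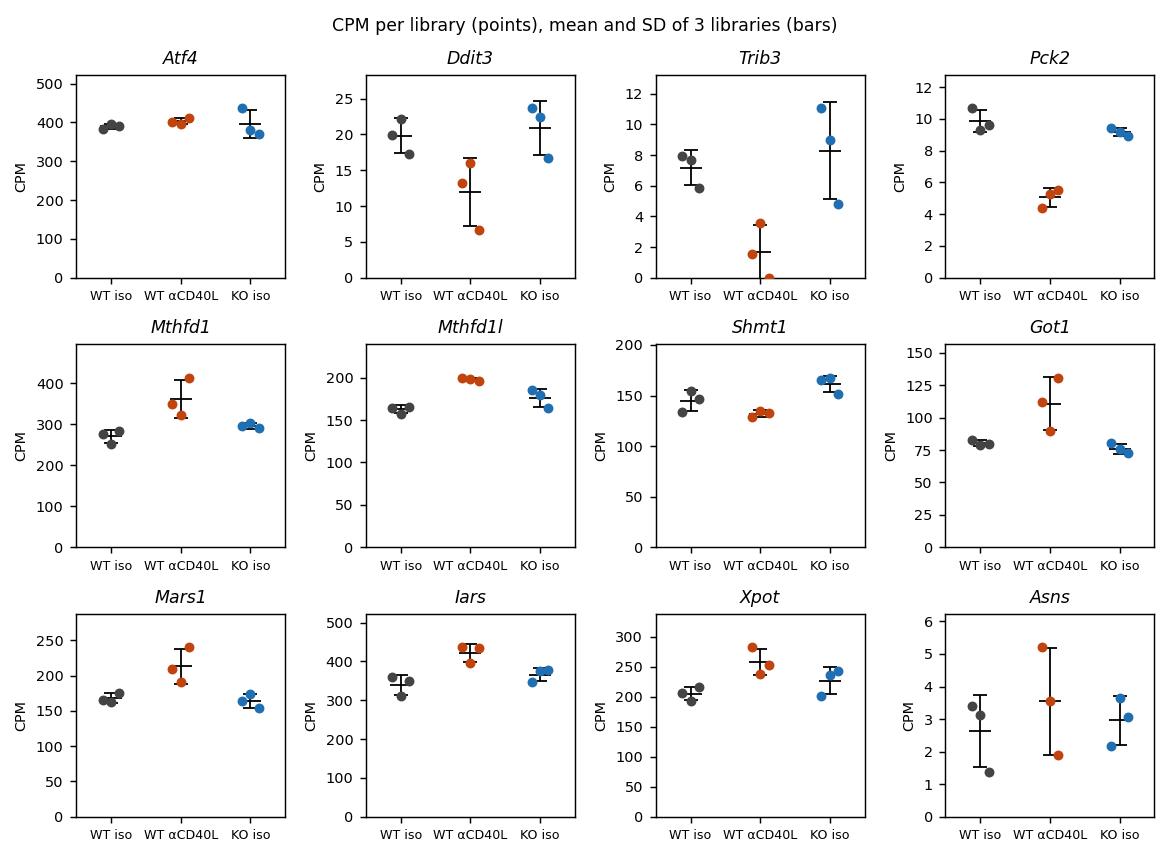
CPM per library (points) for 12 genes in wild-type cells on isotype (WT iso), on anti-CD40L (WT αCD40L) and in libraries labelled KO on isotype (KO iso), 3 per group, with the mean and SD (bars); axes start at 0, which cuts the lower SD bar of Trib3. Pck2 is lower in all 3 anti-CD40L libraries (4.39 to 5.54 CPM) than in the rest, and Mthfd1 higher (323 to 414 CPM).

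**Figure D3:**
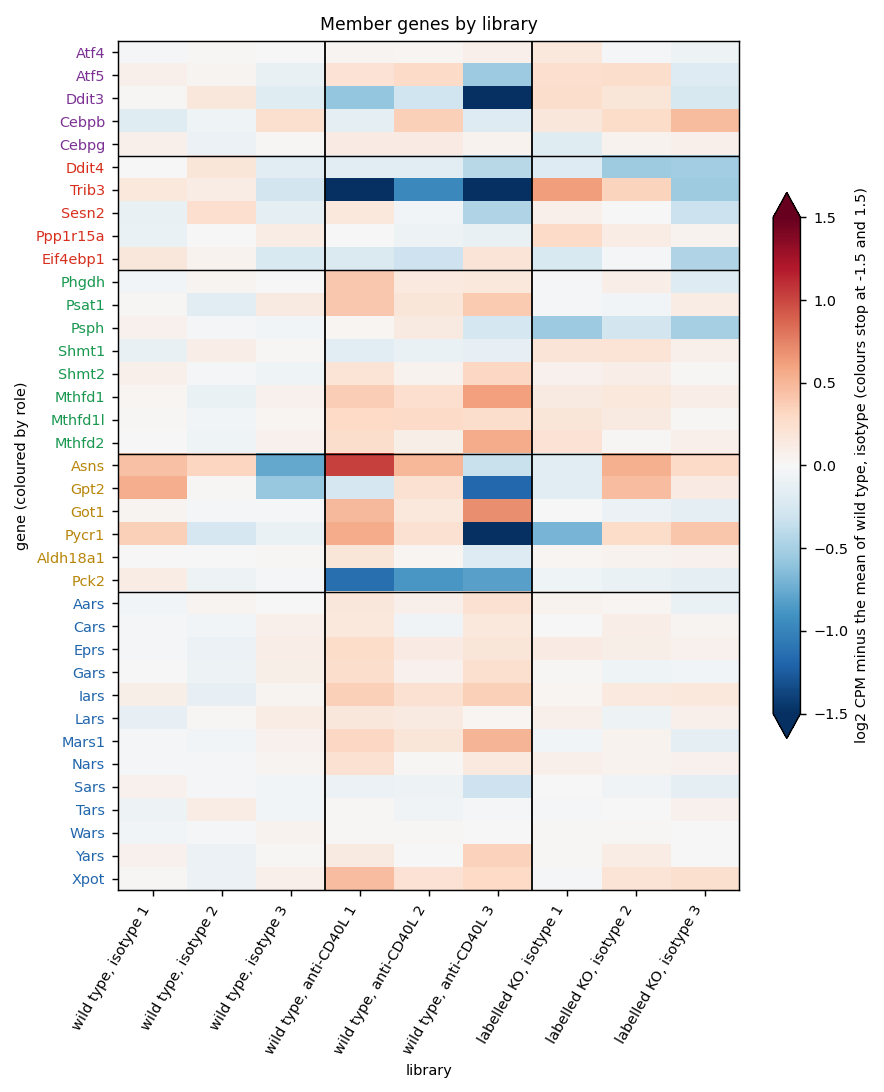
Log2 CPM minus the mean of the isotype-treated wild-type libraries (colour, red higher, blue lower, colours ending at -1.5 and 1.5) for the 37 tested genes (rows, grouped by role) in the 9 libraries (columns). The anti-CD40L columns are red for Mthfd1, Got1 and most synthetases and blue for Trib3, Ddit3 and Pck2.

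Genes with the core TGATGNAA did not move one way. Of the 10 tested among the 13 that hold it, Got1 and Iars rose, Trib3 and Pck2 fell and 6 did not pass, with a median log2 fold change of 0.16. Of the 22 tested with a window that lacks it, 4 rose and 18 did not pass, with a median of 0.06. Shown in sequence above, Asns, with its core 23 bases before the start, stood at no more than 5.20 CPM in any library. Trib3 and Iars hold theirs just inside the transcript, 15 and 8 bases in, and moved apart.

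Role by role, the library medians of log2 CPM relative to the isotype mean lay higher in all 3 anti-CD40L libraries than in the other 6 for 2 of the 5 sets. For serine synthesis and the folate cycle they were 0.28, 0.14 and 0.29 in the anti-CD40L libraries, against -0.035 to 0.024 on isotype and 0.047 to 0.10 in the KO libraries. For the tRNA genes they were 0.17, 0.066 and 0.19, against -0.043 to 0.057 and 0.020 to 0.050. In the other 3 sets the groups overlapped. Some related sets described below were separated in the same way. The other cytosolic synthetases stood at 0.14, 0.096 and 0.26 on anti-CD40L, against at most 0.041 elsewhere. The folate and purine enzymes stood at 0.33, 0.16 and 0.16, against at most 0.040, and the eIF2 set at 0.14, 0.068 and 0.23, against at most 0.042. In the remaining related sets the groups overlapped. Among the tested genes, 7 averaged under 10 CPM. Of those, 5 were lowest in anti-CD40L replicate 3, the library with the fewest counts, against 5 of the 30 with higher means. Over all tested genes the shares were 42% under 10 CPM and 25.5% above. Trib3 and Pck2 were called without that library too, and the part of depth was not tested. Calls depended on single libraries: leaving 1 out moved the number of genes called to between 1 (without isotype replicate 1 or 2, or anti-CD40L replicate 1) and 10 (without anti-CD40L replicate 2), with 2 without isotype replicate 3 or KO replicate 2 and 4 without anti-CD40L replicate 3. The calls of Trib3, Mthfd1l, Got1, Iars, Mars1 and Xpot were each lost without any 1 isotype library, without anti-CD40L replicate 1 and without KO replicate 2, and that of Mthfd1l also without anti-CD40L replicate 2; the fold changes kept their sign.

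**Figure D4:**
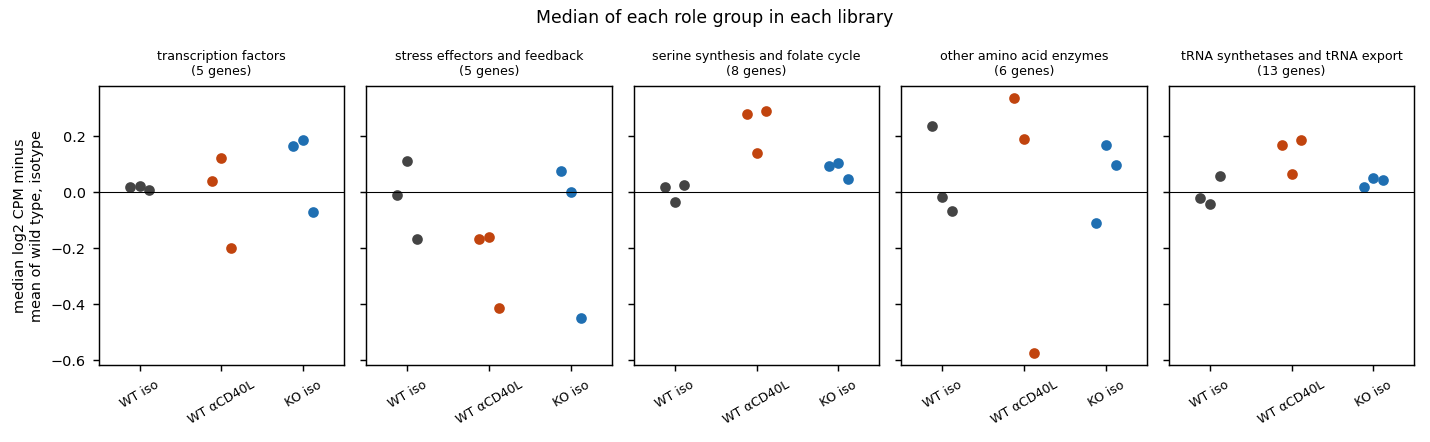
Median of log2 CPM minus the isotype mean over the tested genes of each role (y axis) in each library (points), by group. In the serine and folate panel and the tRNA panel the 3 anti-CD40L points lie above all others.

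The second comparison set the libraries labelled KO against wild-type cells, both on isotype antibody, which differ in genotype alone by their labels. None of the 37 genes passed edgeR's test, and 0% of all 11256 genes did; at an unadjusted p under 0.05 there were 2 of 37, against 5.77% of all genes. DESeq2 and limma-voom also called none of the 37, while over all genes DESeq2 called 44 and limma-voom 0. The median log2 fold change was 0.05, the range was -0.44 to 0.33, and 25 of the 37 were positive, against 50.6% of all genes. Psph, Ddit4 and Shmt1 had the smallest p-values. Psph, the serine phosphatase, was at 22.4, 21.1 and 20.9 CPM in wild type and 14.6, 17.6 and 15.1 in the KO libraries, lower without overlap, with a log2 fold change of -0.44, SE 0.15, Benjamini-Hochberg adjusted p = 0.714 by edgeR (unadjusted p = 0.0112). Ddit4 was at 44.3, 50.5 and 39.7 CPM in wild type and 38.9, 30.7 and 31.1 in the KO libraries, also lower without overlap, with a log2 fold change of -0.42, SE 0.13, Benjamini-Hochberg adjusted p = 0.646 by edgeR (unadjusted p = 0.00729). Shmt1 was at 134, 155 and 147 CPM in wild type and 165, 167 and 152 in the KO libraries, overlapping, with a log2 fold change of 0.16, SE 0.080, Benjamini-Hochberg adjusted p = 0.881 by edgeR (unadjusted p = 0.0733). In 3 genes the KO libraries lay above and in 2 below all wild-type libraries, against 7.61% and 7.62% of all genes. Psph shares 452 exonic bases with Cct6a and Shmt1 184 with Smcr8, on the opposite strands.

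**Figure D5:**
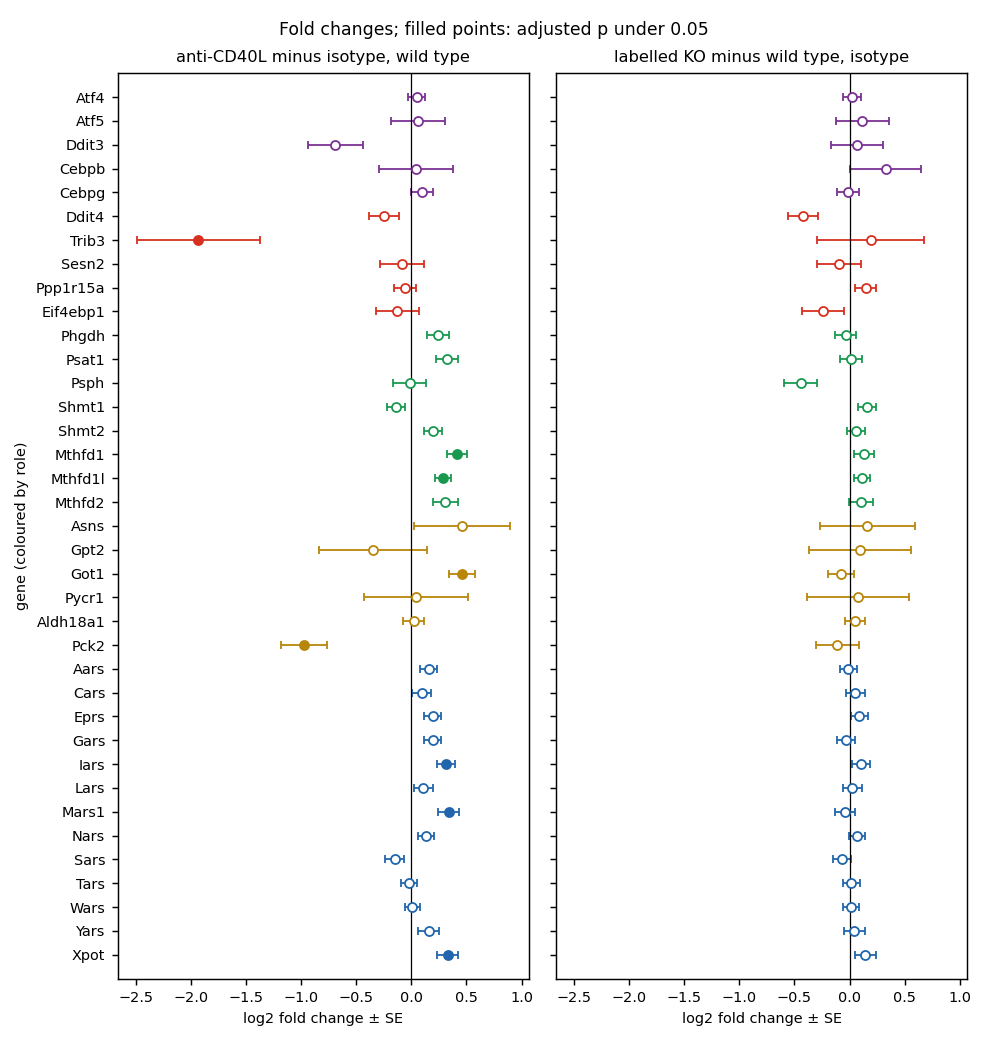
Log2 fold change with its SE (x axes, same scale) for the 37 tested genes: anti-CD40L minus isotype in wild-type cells (left) and libraries labelled KO minus wild type, both on isotype (right); filled points passed at an adjusted p of 0.05. The left panel has 8 filled points and the right panel none.

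The third comparison set anti-CD40L on wild-type cells beside the libraries labelled KO on isotype. It shares the anti-CD40L libraries with the first comparison and the KO libraries with the second, so their values are not independent. Of the 37 genes 2 rose (Got1, Mars1) and 3 fell (Trib3, Pck2, Shmt1) on anti-CD40L relative to KO, against 6.83% of all genes called, 1.79% higher and 5.04% lower. The median log2 fold change was 0.11 (all genes -0.01), and 24 of the 37 were positive, against 48.6% of all genes. In 11 genes all anti-CD40L libraries lay above all KO libraries and in 5 below, against 10.3% and 15.9% of all genes (26.2% together). Got1 had the log2 fold change 0.54, SE 0.12, Benjamini-Hochberg adjusted p = 0.014 by edgeR, and the call was lost only without KO replicate 2 (edgeR adjusted p = 0.0651). Mars1 had a log2 fold change of 0.38, SE 0.092, Benjamini-Hochberg adjusted p = 0.0262 by edgeR. Trib3 fell by 2.12 on the log2 scale (SE 0.56; edgeR Benjamini-Hochberg adjusted p = 0.0364), Pck2 fell by 0.86 (SE 0.20; edgeR adjusted p = 0.0219), and Shmt1 fell by 0.29 (SE 0.081; edgeR adjusted p = 0.0473). For Shmt1 the anti-CD40L libraries stood at 128, 135 and 133 CPM, below all KO and below 2 of 3 isotype libraries. Leaving out 1 library moved the number called to between 0 (without KO replicate 2) and 7 (without anti-CD40L replicate 2), with 1 without anti-CD40L replicate 1 or KO replicate 1. Trib3 was called in 8 of 18 alternative settings and was lost under DESeq2 (adjusted p = 0.0705), limma-voom (0.0797), only the 2 groups (0.102) and summed transcripts (0.0866). The calls of Mars1, Trib3, Pck2 and Shmt1 were each lost without anti-CD40L replicate 1, KO replicate 1 or KO replicate 2, those of Trib3 and Shmt1 also without any 1 isotype library, and those of Mars1 and Shmt1 also without anti-CD40L replicate 3; Mars1 was lost without KO replicate 3 and Shmt1 without anti-CD40L replicate 2 as well.

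Related genes give the surrounding pathway. For scale, 9.37% of all tested genes passed against isotype, 2.91% higher and 6.46% lower. Of 11 further cytosolic synthetases and scaffold proteins 2 rose against isotype and none fell, with a median log2 fold change of 0.18: Dars, for aspartate, from 169 ± 3.3 to 223 ± 9.42 CPM (log2 fold change 0.40, SE 0.090, Benjamini-Hochberg adjusted p = 0.0144 by edgeR), and Rars, for arginine, from 220 ± 7.9 to 263 ± 8.85 (log2 fold change 0.26, SE 0.071, Benjamini-Hochberg adjusted p = 0.0407 by edgeR). Of 19 tested enzymes of folate, purine, thymidylate and methionine metabolism 3 rose and none fell, with a median of 0.16. They are enzymes of purine synthesis: Atic, from 190 ± 5.54 to 256 ± 15.9 CPM (log2 fold change 0.43, SE 0.077, Benjamini-Hochberg adjusted p = 0.00387 by edgeR), Paics, from 250 ± 4.36 to 307 ± 12.1 (log2 fold change 0.30, SE 0.070, Benjamini-Hochberg adjusted p = 0.0198 by edgeR), and Ppat, from 156 ± 10 to 195 ± 16.4 (log2 fold change 0.33, SE 0.093, Benjamini-Hochberg adjusted p = 0.0447 by edgeR). Atic was called in all 19 alternative settings, and against the KO libraries Atic and Paics rose too (log2 fold changes 0.47 and 0.29, edgeR adjusted p = 0.00247 and 0.0233). Of 8 regulators in the MYC, mTORC1 and NRF2 pathways 1 rose and 1 fell. Myc, whose protein drives nucleotide and ribosome synthesis, went from 507 ± 19.9 to 668 ± 72.6 CPM (log2 fold change 0.40, SE 0.085, Benjamini-Hochberg adjusted p = 0.0117 by edgeR). In the KO libraries Myc was at 641 ± 13 CPM, a log2 fold change from wild type of 0.34, SE 0.085, Benjamini-Hochberg adjusted p = 0.425 by edgeR (unadjusted p = 0.00155). It passed in 2 of 19 alternative settings, DESeq2 (adjusted p = 0.0332) and limma-voom with library quality weights (adjusted p = 0.0455). Nfe2l2, which encodes NRF2, a regulator that also acts on serine enzymes, fell from 67.1 ± 3.08 to 51.3 ± 2.18 CPM (log2 fold change -0.39, SE 0.092; edgeR Benjamini-Hochberg adjusted p = 0.0204). Leaving out 1 library ended the call of Dars (isotype replicate 2 or anti-CD40L replicate 1), of Myc (isotype replicate 1 or 2), and of Paics and Nfe2l2 (any isotype library or anti-CD40L replicate 1). Rars and Ppat were lost without any 1 isotype library, anti-CD40L replicate 1 or KO replicate 2, Rars also without anti-CD40L replicate 3 and Ppat without anti-CD40L replicate 2.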

How the data were processed

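RNA from 9 libraries of mouse CD4+ T cells was sequenced from KAPA mRNA HyperPrep preparations, according to the labels. The authors deposited unnormalized expected counts for 42361 RefSeq transcripts; every value was a multiple of 0.5 and 67.5% were whole. The submitters' processing notes name CASAVA 1.8.2, HISAT2 2.1.0 and the build mm10. Neither the counter, nor its use of strand, nor how it treated multi-mapped reads is stated. RefSeq symbols matched 42198 transcripts, GENCODE gave 70 more, and 93 had none. Each of 25160 genes was represented by its transcript of highest total, and counts were rounded to whole numbers, with values ending in 0.5 rounded up. Where the test plan assumed whole counts, the same test was used on these rounded values.

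Genes passing filterByExpr (11256) were fitted with edgeR 4.0.16 in R 4.3.3: TMM, 1 term per group over all 9 libraries, robust quasi-likelihood F tests, Benjamini-Hochberg adjustment over all tested genes, threshold 0.05. CPM are counts scaled to the TMM-adjusted library size. The SE is the log2 fold change divided by the square root of F. limma 3.58.1 and DESeq2 1.42.0 served as alternatives, and the edgeR step was tested on simulated data. No 2 libraries of a group agreed within sampling noise (chi-square per degree of freedom 6.22 to 19.89), so none was a repeat deposit. A floor of 3 counts covers counting error only.

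Per-library values and tests are given for members called in any comparison; for Atf4, Ddit3, Trib3, Chac1, Sesn2, Ddit4, Asns, Phgdh, Psat1, Shmt2 and Mthfd2 whatever their result; for the 3 members of smallest p where none was called; and for up to 3 called genes a direction of each related list, with Myc. Sars, Aars, Eprs, Wars, Psph and Shmt1 in the first comparison were named after their values were seen. The members and lists were chosen with earlier results of these data known. Motifs were searched on both strands of RefSeq windows, GRCm38.p6.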

Additional observations from a re-analysis of the deposited data

How the results depend on the processing

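For anti-CD40L against isotype, 8 genes were called, and 6 to 9 under DESeq2, limma-voom with or without library weights, other scalings, no filter, a mean of at least 10 CPM, or only the 2 groups. The count was 4 when transcripts of a gene were summed, and 1 to 10 when 1 library was left out. Transcripts of 1 gene often held nearly equal counts (Atf4 second over first 0.998, Mars1 0.99). Whether the same reads were counted for each, and so more than 1 time in the sum, is not stated. Anti-CD40L against the KO libraries called 5; it called 8 under limma-voom with library quality weights, 3 at a mean of at least 10 CPM, 1 with only the 2 groups, 3 with summed transcripts, and 0 to 7 when 1 library was left out. KO against wild type called 0 of these genes in every setting run. Sesn2, at -0.084 on the log2 scale against isotype, was 0.057 under limma-voom with library quality weights and -0.228 to 0.063 when 1 library was left out, positive without isotype replicate 2 (0.054) or anti-CD40L replicate 3 (0.063). Myc against the KO libraries, at 0.059, was -0.008 to 0.137 when 1 library was left out, negative without anti-CD40L replicate 3. Among single genes 616 values kept their sign and their side of the threshold (called or not), 162 lost a call, 11 gained one and these 4 changed sign. The cause of these changes was not tested. With the replicate number as a block (replicate block), 7 genes were called against isotype, 5 of them shared with the fit without it, 0 for KO against wild type and 5 for anti-CD40L against KO. Same-numbered libraries correlated by 0.18, 0.084 and 0.078 between isotype and anti-CD40L and by -0.149 to 0.062 between the other groups. Different-numbered libraries correlated by -0.106 to 0.013 between isotype and anti-CD40L, and by as much as 0.178 between anti-CD40L and KO. The labels state no pairing, so the numbers were not taken to pair the libraries. These correlations do not settle whether the wild-type libraries were paired. Over all genes, calls against isotype ran from 486 to 1342 when 1 library was left out, against 1055. KO against wild type gave 0 calls over all genes by edgeR, 44 by DESeq2, 38 by limma-voom with weights and 102 without a filter. Precision is limited by 3 libraries a group and, for the genes under 10 CPM, by depth.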

Other observations

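In 3 of the related sets a single gene was called against isotype, where 9.37% of all tested genes were called. Among 17 mitochondrial synthetases, which charge tRNAs inside mitochondria, Lars2, for leucine, fell from 982 ± 250 to 513 ± 99.6 CPM on anti-CD40L (SD, n = 3; log2 fold change -0.93, SE 0.17, edgeR Benjamini-Hochberg adjusted p = 0.00457), and the set's median log2 fold change was 0.06. The libraries labelled KO had 572 ± 69.9 CPM of Lars2, below all isotype libraries but not called (edgeR adjusted p = 0.366). The ribosomal RNA precursor, recognised by its RefSeq accession, is a sign of carried-over ribosomal RNA. Its share was highest in isotype replicates 2 and 3, as was Lars2. Within groups the order differed: anti-CD40L replicate 3 and KO replicate 1 had the most precursor of their groups and the least Lars2. The precursor took 1.18%, 2.64% and 2.37% of counts in the isotype libraries, where Lars2 was at 747, 954 and 1250 CPM. In the anti-CD40L libraries it took 0.766%, 0.821% and 1.41%, with Lars2 at 468, 628 and 445 CPM, and in the KO libraries 1.21%, 1.14% and 1.14%, with Lars2 at 509, 560 and 647. Its part in the fall of Lars2 was not tested. Among 13 genes of eIF2 and its kinases, Eif2ak3, which encodes the endoplasmic reticulum kinase PERK, fell from 25.7 ± 0.683 to 17.7 ± 2.12 CPM (log2 fold change -0.53, SE 0.15, edgeR adjusted p = 0.0433). It was also lower than in the KO libraries (log2 fold change -0.59, edgeR adjusted p = 0.032), a call that held in 9 of 19 settings and was lost with only the 2 groups, the replicate block, summed transcripts, and without any 1 isotype library, anti-CD40L replicate 1 or 3, or KO replicate 1 or 2. Of that set 12 of the 13 genes were positive against isotype, where 48.2% of all genes were. Among 12 tested amino acid transporters, Slc1a5, a carrier of glutamine and other neutral amino acids, fell from 652 ± 46.6 to 539 ± 27.7 CPM (log2 fold change -0.27, SE 0.079, edgeR adjusted p = 0.0468), and against the KO libraries by 0.36 on the log2 scale (edgeR adjusted p = 0.014). Lars2 kept its call in all 19 alternative settings, with the highest adjusted p without anti-CD40L replicate 3 (edgeR adjusted p = 0.0386). Eif2ak3 and Slc1a5 against isotype kept theirs in 9 of 19. Both of these calls were lost without any 1 isotype library, anti-CD40L replicate 1 or 3, or KO replicate 2. That of Slc1a5 was also lost without KO replicate 1.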
